A study of Mus musculus with 13 samples.

Results

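The messenger RNA levels of 36 mouse genes that carry out glycolysis, export lactate or respond to low oxygen were followed through a chemical conversion of fibroblasts toward corneal endothelial cells. The genes were chosen by name as known members of these pathways, out of 54232 genes with an Ensembl identifier in the table, and all 36 reached 1 FPKM in at least 1 library and were tested. They were chosen with earlier results of these data known, so their counts set against all genes are not an independent test. FPKM is fragments per kilobase of gene model, scaled to the reads of the library, which adjusts for gene length and depth. It does not make libraries fully comparable, as FPKM summed over all genes ran from 595334.2 in D0 library 3 to 779642.0 in D12 library 2. Levels of genes that share sequence with other genes are uncertain. Glycolysis splits glucose into pyruvate. Lactate dehydrogenase turns pyruvate into lactate, and monocarboxylate transporters carry lactate across the cell membrane. When oxygen is short, prolyl hydroxylases of the Egln family stop marking the transcription factor HIF for destruction, and HIF then raises transcription of glucose transporters, glycolytic enzymes and a set of further targets. The corneal endothelium, the cell layer that pumps fluid out of the cornea, is known for high aerobic glycolysis and for lactate transport.

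All cells came from C57BL/6 mice. The 13 libraries fell into 6 groups. The converted cells, labelled as chemically induced corneal endothelial cells, gave 2 libraries each for P1 and P8, and the labels do not say what the letter P stands for. The labels call the cells after 7 and 12 days of conversion (D7, 3 libraries, and D12, 2 libraries) induced neural crest cells, which is the intermediate of the conversion. Primary corneal endothelial cells from mice at postnatal day 30 gave 1 library (pCEC). The unconverted mouse embryonic fibroblasts, from E13.5 embryos, gave 3 libraries (D0), and the D7, D12, P1 and P8 cells were derived from such fibroblasts by small molecules. The labels name no separate cultures or animals, and pCEC has no replicate.

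The deposited gene identifiers matched the lines of D0 only, so the gene behind each value of every other group was inferred. The procedure placed 99.56 to 99.92% of the D0 genes at 1 FPKM or more correctly when their identifiers were hidden. Those checks used gene lengths already set from the D0 values for 1197 genes. With the lengths of 1 in 5 genes from the gene annotation only, 94.3% of these genes at 1 FPKM or more were right. All 36 genes were placed in every group. Libraries held 9997865 to 24030674 reads. Several libraries departed from their labels on marker genes. Epithelial keratins were abundant in pCEC (Krt5 676 FPKM and Krt14 644 FPKM), in both P1 libraries (Krt5 2360.3 and 2192 FPKM) and in P8 library 1 (Krt5 2382 FPKM), while the corneal endothelial markers Col8a2 and Cdh2 stood at 0.0619 and 0.109 FPKM in pCEC. P8 library 2 stood apart from P8 library 1, with Krt5 at 0 in P8 library 2, the macrophage gene Lyz2 at 691 FPKM against 0 FPKM in P8 library 1, and the summed fibroblast markers at 3180.3 FPKM against 40.5 FPKM. The 8 neural crest markers summed to 123, 129 and 124 FPKM in D7 and 93.4 and 96.6 FPKM in D12, against 48.5, 48.8 and 49.0 FPKM in D0. Of these, Tfap2a, Tfap2b, Pax3, Ngfr and Msx1 were higher in every D7 and D12 library than in any D0 library (Msx1 42.5, 44.0 and 43.7 FPKM in D7 and 27.4 and 33.8 FPKM in D12, against 2.81, 2.64 and 2.17 FPKM in D0). Foxd3 was at 0 in all 5 libraries of D7 and D12, and Sox10 was at most 0.480 FPKM there, against 2.19, 1.93 and 1.61 FPKM in D0. In bulk RNA, fewer cells of a type and less RNA per cell cannot be told apart.

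Most of the 36 genes were higher in P1 than in fibroblasts. In P1 against D0, 23 members rose and 1 fell, where 10.9% of all 17472 genes tested rose and 8.36% fell, and the members' median log2 fold change was 1.44 against 0.04 over all genes. Rose and fell mean a log2 fold change of 1 or more in size together with a p, adjusted over all genes after Benjamini and Hochberg, below 0.05, from limma on log2(FPKM + 1), a scale that understates the change of genes with low values. In P1 against D12, 13 members rose and 4 fell, where 14.7% of all genes rose and 12.6% fell, with a median of 0.75 against 0.11 over all genes. In D7 against D0, 6 members rose and 2 fell, where 11.3% rose and 10.9% fell, with a median of 0.52 against 0.00. Under median-ratio scaling the D7 counts were also 6 and 2, where 10.9% of all genes rose and 11.2% fell. The members' median was 0.50 there and 49.4% of all calls were higher. Under scaling to TPM the D7 counts were 5 and 3, where 8.99% of all genes rose and 16.9% fell. The members' median was 0.26 there and 34.7% of all calls were higher, against 50.8% under FPKM. In these 2 scalings 22.2 and 25.9% of all genes were called, so the number of members called was near that share. TPM scaling shifted the median of all genes by -0.20 for D7 against D0 and by -0.13 for P1 against D0. In D12 against D7 limma called 0 members, where 0.166% of all genes rose and 0.137% fell, 2 members had an unadjusted p under 0.05, and voom on recovered reads also called 0, with 1 member at an unadjusted p under 0.05. The comparisons share libraries with each other, so their calls are not independent. The 36 genes together held 1.16% of all FPKM in pCEC and, along the conversion, 0.839, 0.837 and 0.820% in D0, 1.12, 1.12 and 1.11% in D7, 1.147 and 1.13% in D12, 1.89 and 1.29% in P1 and 1.73 and 1.39% in P8.

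**Figure D1:**
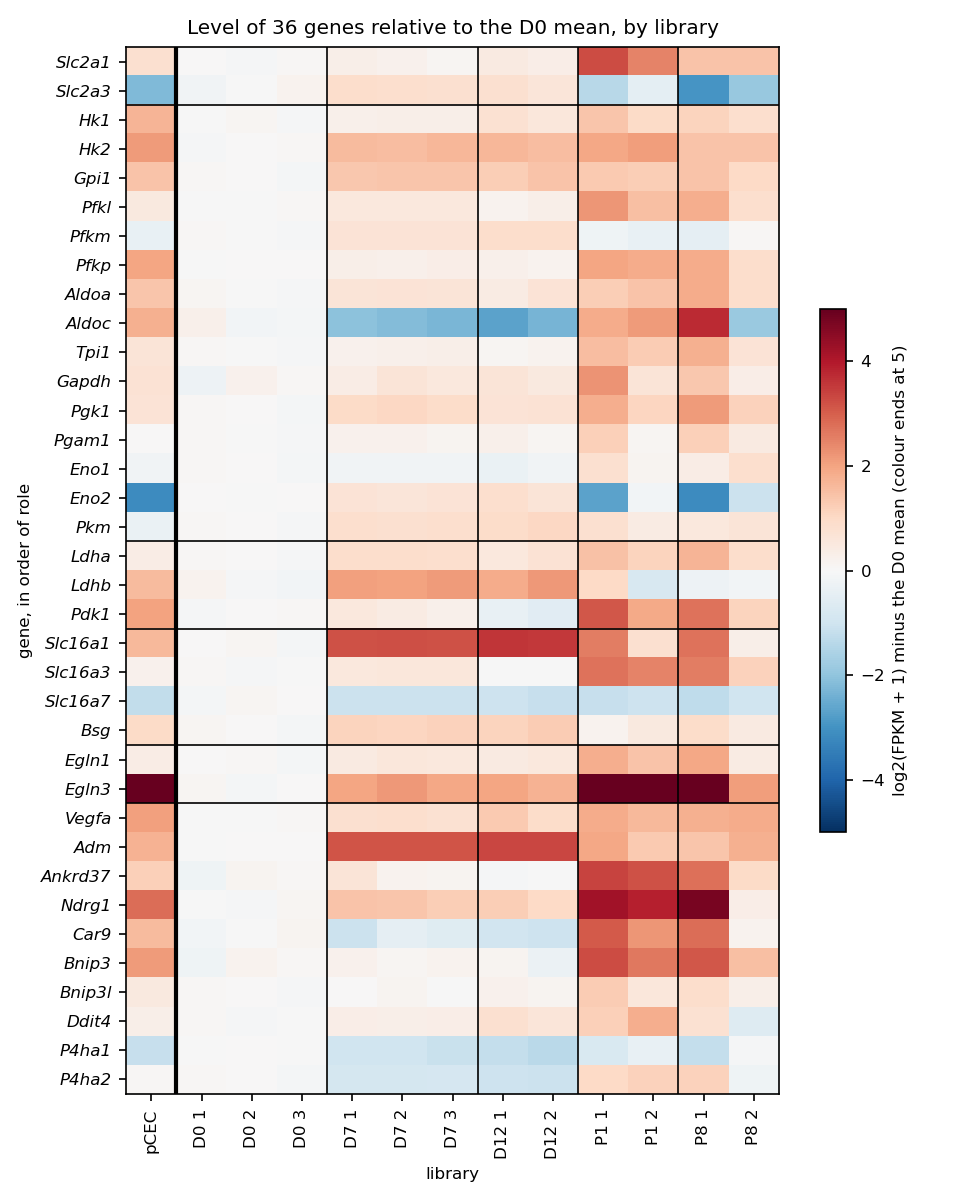
Level of each of the 36 genes (rows, grouped by role) in each of the 13 libraries (columns), as log2(FPKM + 1) minus the mean of the 3 D0 libraries, with colour ending at 5. Egln3 and Ndrg1 are darkest in P1 and P8 library 1, while Slc16a1 and Adm are darkest in D7 and D12, and P8 library 2 is paler than P8 library 1 over most hypoxia targets.

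Glucose enters these cells through facilitative transporters of the Slc2a family. Slc2a1 (ENSMUSG00000028645, chr4:119108711-119137983 on the plus strand, GRCm38) encodes GLUT1, the widespread basal transporter and a known HIF target. Its level was 91.1 FPKM in pCEC and, along the conversion, 52.3, 50.6 and 53.9 in D0, 63.5, 61.2 and 55.5 in D7, 71.3 and 66.9 in D12, 504 and 294 in P1 and 143 and 141 in P8. Both P1 libraries lay above every other library, and the P8 libraries, which disagreed on many other genes, lay close together between P1 and D12. Slc2a1 rose in P1 against D12 (log2 fold change 2.46 ± 0.21, adjusted p = 5.36e-05) and against D0 (2.86 ± 0.19, adjusted p = 2.83e-05). It was the only member called in P8 against P1, where it fell (-1.43 ± 0.21, adjusted p = 0.0114; 1.02% of all genes fell), and it fell in pCEC against P1 (-2.07 ± 0.26, adjusted p = 0.00226). Slc2a3 encodes GLUT3, a transporter of high glucose affinity best known in neurons. Its level was 0.782 FPKM in pCEC and, along the conversion, 6.42, 7.24 and 8.30 in D0, 14.4, 13.7 and 13.3 in D7, 13.3 and 11.5 in D12, 2.20 and 4.92 in P1 and 0.0699 and 1.23 in P8. Slc2a3 fell in P1 against D12 (-1.62 ± 0.37, adjusted p = 0.00855) and in pCEC against D0 (-2.22 ± 0.43, adjusted p = 0.00585). The call against D12 ended with a pseudocount of 0.1 (adjusted p = 0.0847) and with only P1 and D12 in the fit (adjusted p = 0.0748). Slc2a3 made up 0.435 and 1.64% of the summed FPKM of both transporter genes in P1, against 15.7 and 14.6% in D12.

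The 15 genes of the glycolytic steps summed to 4724 FPKM in pCEC and, along the conversion, to 3572, 3439.6 and 3271 in D0, 5118, 5122 and 5113 in D7, 4996 and 5379 in D12, 7552 and 5834 in P1 and 7669.7 and 5865 in P8. In P1 against D0, 9 of them rose and 0 fell, where 10.9% of all genes rose and 8.36% fell. In P1 against D12, 4 rose and 1 fell, where 14.7% of all genes rose and 12.6% fell. In D7 against D0, 2 rose and 0 fell, where 11.3% of all genes rose and 10.9% fell, so the rises were near the share of all genes. In pCEC against D0, 5 rose and 1 fell, where 13.2% of all genes rose and 9.63% fell.

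Hexokinases phosphorylate glucose on entry. Hk1, the constitutive form, was at 277 FPKM in pCEC and, along the conversion, 83.2, 88.7 and 79.96 in D0, 101, 102 and 103 in D7, 143 and 126 in D12, 219 and 162 in P1 and 184 and 151 in P8. Hk2, the inducible form, was at 55.5 FPKM in pCEC and, along the conversion, 11.3, 12.1 and 12.3 in D0, 37.5, 36.9 and 39.6 in D7, 39.5 and 36.3 in D12, 47.9 and 54.2 in P1 and 33.9 and 33.6 in P8. Hk2 was lower in all 3 D0 libraries than in any other library. Hk2 rose in D7 against D0 (1.60 ± 0.09, adjusted p = 3.58e-06), in P1 against D0 (2.01 ± 0.10, adjusted p = 4.25e-06) and in pCEC against D0 (2.13 ± 0.13, adjusted p = 8.24e-06). Hk1 rose in P1 against D0 (1.16 ± 0.14, adjusted p = 0.000801) and in pCEC against D0 (1.71 ± 0.18, adjusted p = 0.000316), and its P1 difference was 0.94 without P1 library 1 and 0.96 under TPM scaling. Gpi1, glucose-6-phosphate isomerase, was at 481 FPKM in pCEC and, along the conversion, 187, 184 and 168 in D0, 459.5, 469 and 469.5 in D7, 427 and 489 in D12, 446 and 419 in P1 and 485 and 363 in P8. It rose in D7 against D0 (1.37 ± 0.13, adjusted p = 5.65e-05) and stayed between 363 and 489 FPKM in all libraries outside D0.

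Phosphofructokinase makes the committed step, and its liver (Pfkl), muscle (Pfkm) and platelet (Pfkp) subunit genes differed. Pfkl was at 96.9 FPKM in pCEC and, along the conversion, 66.7, 66.9 and 70.6 in D0, 99.8, 98.0 and 97.5 in D7, 76.3 and 83.8 in D12, 321 and 195 in P1 and 241 and 123 in P8. Pfkp was at 126 FPKM in pCEC and, along the conversion, 31.1, 32.2 and 31.9 in D0, 38.6, 38.3 and 40.3 in D7, 38.0 and 35.5 in D12, 127 and 117 in P1 and 118 and 58.8 in P8. Pfkm was at 19.9 FPKM in pCEC and, along the conversion, 27.4, 26.0 and 25.5 in D0, 42.6, 42.5 and 43.0 in D7, 49.0 and 49.5 in D12, 22.6 and 20.1 in P1 and 18.9 and 27.1 in P8. Pfkl and Pfkp were higher in both P1 libraries than in every D0, D7 and D12 library, while Pfkm was lower in both P1 libraries than in every D0, D7 and D12 library. In P1 against D12, Pfkl rose (1.63 ± 0.30, adjusted p = 0.00305), Pfkp rose (1.71 ± 0.25, adjusted p = 0.00108) and Pfkm fell (-1.17 ± 0.15, adjusted p = 0.000574). Pfkm made up 4.80 and 6.05% of the summed FPKM of the 3 subunit genes in P1, against 30.0 and 29.3% in D12. In pCEC the leading subunit gene was Pfkp, with 51.8% of that sum, against 24.8, 25.7 and 24.9% in D0.

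Aldolase splits the 6-carbon sugar. Aldoa, the widespread form, was at 1089.9 FPKM in pCEC and, along the conversion, 439.8, 409 and 394 in D0, 648, 658 and 646 in D7, 556 and 665 in D12, 976 and 1119 in P1 and 1492 and 757 in P8. Aldoc, the brain form, was at 30.8 FPKM in pCEC and, along the conversion, 10.1, 7.53 and 7.76 in D0, 1.24, 1.12 and 0.902 in D7, 0.462 and 0.883 in D12, 33.0 and 39.6 in P1 and 124 and 1.597 in P8. Aldoc was near or below 1 FPKM in D7 and D12, and it differed most between the P8 libraries, with P8 library 1 the highest of all 13. Aldoa rose in P1 against D0 (1.33 ± 0.25, adjusted p = 0.00547) and in pCEC against D0 (1.39 ± 0.31, adjusted p = 0.0118). Aldoc rose in P1 against D12 (4.48 ± 1.35, adjusted p = 0.0268), and leaving out any of the 4 compared libraries ended the call, with adjusted p between 0.0821 and 0.104. Tpi1, triose-phosphate isomerase, was at 432 FPKM in pCEC and, along the conversion, 292, 279 and 268 in D0, 327, 336 and 341 in D7, 296 and 319 in D12, 815 and 672 in P1 and 973 and 454 in P8. It rose in P1 against D12 (1.26 ± 0.29, adjusted p = 0.00875) and against D0 (1.40 ± 0.26, adjusted p = 0.00582).

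Of the genes of the later steps, Pgk1 and Gapdh rose in P1 against D0, while Pkm, Eno1, Eno2 and Pgam1 were not called there. Pgk1, phosphoglycerate kinase, was at 364 FPKM in pCEC and, along the conversion, 239.5, 233 and 212 in D0, 438, 465 and 432 in D7, 366 and 373 in D12, 806 and 480.2 in P1 and 999 and 508 in P8. It rose in P1 against D0 (1.44 ± 0.29, adjusted p = 0.00709). Gapdh, glyceraldehyde-3-phosphate dehydrogenase, was listed at only 17.3 FPKM in pCEC and, along the conversion, 8.21, 11.8 and 10.6 in D0, 13.46, 16.2 and 15.1 in D7, 16.5 and 14.6 in D12, 51.4 and 16.2 in P1 and 27.5 and 12.99 in P8. It rose in P1 against D0 (1.44 ± 0.44, adjusted p = 0.0396), but without P1 library 1 the log2 fold change was 0.63 with an adjusted p of 0.217, and without any D0 library the adjusted p lay between 0.0743 and 0.111. Values of Gapdh are uncertain, since 24.7% of its 50-base windows occur in other genes, 113 of which share at least 50 windows and 109 of these are pseudogenes. Shared windows also make up 53.9% of Pgk1, 36.2% of Pgam1, 26.0% of Eno1 and 25.8% of Pkm.

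Pkm, pyruvate kinase, was the most abundant member in every library but pCEC, where Aldoa led, and P8 library 1, where Ldha led. Its level was 883 FPKM in pCEC and, along the conversion, 1148, 1109 and 1062 in D0, 1980.0, 1921 and 1957 in D7, 2101 and 2252 in D12, 1950.0 and 1475 in P1 and 1598 and 1724 in P8. It passed the adjusted p but not the fold limit in D7 against D0 (0.82 ± 0.15, adjusted p = 0.0023). Eno1, the widespread enolase, was at 680.2 FPKM in pCEC and, along the conversion, 817, 781 and 729 in D0, 679, 685 and 684 in D7, 621 and 694 in D12, 1358 and 849 in P1 and 999 and 1405 in P8, and no comparison called it. Eno2, the neuronal enolase, was at 3.51 FPKM in pCEC and, along the conversion, 38.8, 37.7 and 38.7 in D0, 61.4, 59.1 and 62.4 in D7, 68.8 and 61.3 in D12, 5.17 and 35.1 in P1 and 3.43 and 17.6 in P8. The P1 libraries differed 6.78-fold on Eno2, with library 2 the higher, and P8 library 1 was as low as pCEC. Eno2 fell in pCEC against D0 (-3.13 ± 0.91, adjusted p = 0.0316), with an adjusted p of 0.0675 to 0.0681 when a D0 library was left out. Pgam1, phosphoglycerate mutase, lay between 161 and 375 FPKM and no comparison called it.

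**Figure D2:**
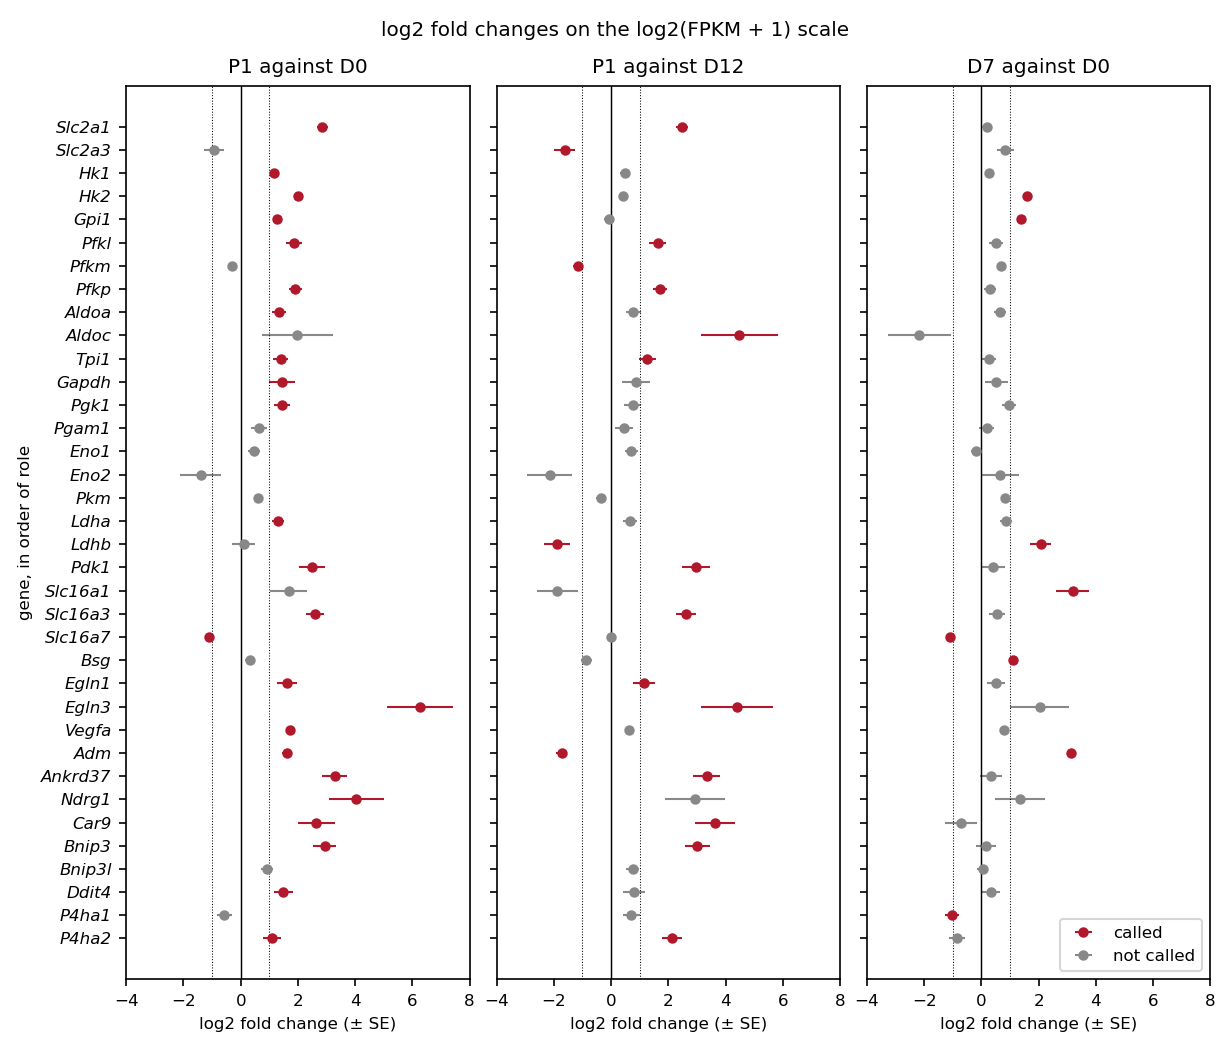
Each gene's log2 fold change with its SE in P1 against D0, P1 against D12 and D7 against D0, from limma on log2(FPKM + 1), with red for genes called and dotted lines at a log2 fold change of 1 in either direction. In P1 against D0 red points lie on the right for 23 genes and on the left for Slc16a7 alone, and Egln3 is farthest right at 6.27.

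Lactate dehydrogenase genes moved apart. Ldha, whose subunit favours lactate formation, was at 644 FPKM in pCEC and, along the conversion, 518, 510.1 and 475 in D0, 912, 925 and 896 in D7, 731 and 825 in D12, 1392 and 1098 in P1 and 1608 and 931 in P8. Ldhb, whose subunit favours the return to pyruvate, was at 164 FPKM in pCEC and, along the conversion, 61.5, 51.7 and 49.3 in D0, 229, 223 and 239 in D7, 197 and 243 in D12, 109 and 30.8 in P1 and 45.5 and 49.6 in P8. All D7 and D12 libraries exceeded every D0, P1 and P8 library on Ldhb, and pCEC lay between them. Ldhb rose in D7 against D0 (2.07 ± 0.37, adjusted p = 0.00219) and fell in P1 against D12 (-1.89 ± 0.45, adjusted p = 0.00997), the second call ending without D12 library 2 (adjusted p = 0.0679). Ldha rose in P1 against D0 (1.30 ± 0.22, adjusted p = 0.0037). Ldhb held 7.25 and 2.73% of the summed FPKM of both genes in P1, against 21.2 and 22.7% in D12, and 20.05, 19.4 and 21.1% in D7, against 10.6, 9.21 and 9.41% in D0. In pCEC the share was 20.3%, and Ldhb rose in pCEC against D0 (1.59 ± 0.52, adjusted p = 0.0465), with an adjusted p of 0.0757 to 0.0992 when a D0 library was left out. Of the Ldhb windows, 21% occur in other genes.

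Pdk1 encodes the kinase that switches off pyruvate dehydrogenase and so keeps pyruvate out of the mitochondrial cycle. Its level was 43.7 FPKM in pCEC and, along the conversion, 9.53, 10.2 and 10.3 in D0, 15.04, 13.8 and 12.1 in D7, 7.64 and 6.37 in D12, 94.7 and 40.1 in P1 and 71.7 and 23.0 in P8. Every P1 library and the first P8 library lay above all D0, D7 and D12 libraries, and P8 library 2 did so by a smaller margin. Pdk1 rose in P1 against D12 (2.97 ± 0.50, adjusted p = 0.00195), in P1 against D0 (2.51 ± 0.45, adjusted p = 0.00481) and in pCEC against D0 (2.02 ± 0.57, adjusted p = 0.0291), the last with an adjusted p of 0.0614 to 0.0664 when a D0 library was left out.

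Lactate transport changed its leading gene between the intermediate and the converted cells. Slc16a1 (ENSMUSG00000032902, chr3:104638668-104658462 on the plus strand) encodes MCT1, which carries lactate in either direction. Its level was 18.6 FPKM in pCEC and, along the conversion, 5.46, 5.80 and 4.98 in D0, 56.5, 58.4 and 57.0 in D7, 75.8 and 72.9 in D12, 36.4 and 10.2 in P1 and 41.4 and 6.86 in P8. D7 and D12 were above every other library, D0 was below every other library, and each of P1 and P8 held 1 library near 40 FPKM and 1 near 10 FPKM or less. Slc16a1 rose in D7 against D0 (3.19 ± 0.59, adjusted p = 0.00279) and was not called in P1 against D12 (-1.88 ± 0.72, adjusted p = 0.0645), although without P8 library 2 in the fit the adjusted p was 0.00794 at the same fold change. Slc16a3 (ENSMUSG00000025161, chr11:120948480-120960868 on the plus strand) encodes MCT4, the low-affinity lactate exporter of glycolytic cells. Its level was 33.7 FPKM in pCEC and, along the conversion, 30.3, 27.4 and 28.4 in D0, 41.9, 42.9 and 42.8 in D7, 28.3 and 28.1 in D12, 192 and 165 in P1 and 176 and 65.3 in P8. Both P1 libraries and P8 library 1 stood above all others, pCEC lay within the range of D0 to D7, and P8 library 2 lay between. Slc16a3 rose in P1 against D12 (2.62 ± 0.35, adjusted p = 0.000631) and against D0 (2.60 ± 0.32, adjusted p = 0.000787), and fell in pCEC against P1 (-2.37 ± 0.43, adjusted p = 0.0188; 0.893% of all genes fell).

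The share of Slc16a1 in the summed FPKM of Slc16a1, Slc16a3 and Slc16a7 was 15.9 and 5.78% in P1, against 72.7 and 72.1% in D12. It was 57.4, 57.6 and 57.0% in D7, against 14.8, 16.7 and 14.3% in D0, and 35.5% in pCEC. Slc16a7 encodes MCT2, a high-affinity lactate importer. It was at 0.0302 FPKM in pCEC and, along the conversion, 1.21, 1.55 and 1.42 in D0, 0.133, 0.129 and 0.1204 in D7, 0.167 and 0.0800 in D12, 0.0692 and 0.156 in P1 and 0 and 0.198 in P8, with 0 reads in P8 library 1, which allows up to 0.0567 FPKM (3 reads, counting error only). Slc16a7 fell in D7 against D0 (-1.08 ± 0.11, adjusted p = 8.35e-05), in P1 against D0 (-1.10 ± 0.12, adjusted p = 0.000361) and in pCEC against D0 (-1.21 ± 0.15, adjusted p = 0.000676), and each of these log2 values went above -1 with a pseudocount of 5. Bsg, basigin, is the chaperone that brings MCT1 and MCT4 to the membrane. It was at 1027 FPKM in pCEC and, along the conversion, 562, 529 and 496 in D0, 1137, 1127 and 1163 in D7, 1139.9 and 1282 in D12, 605 and 734 in P1 and 1010.2 and 724 in P8. Bsg rose in D7 against D0 (1.11 ± 0.15, adjusted p = 0.000613), with 0.82 under TPM scaling, and in P1 against D12 it passed the adjusted p below the fold limit (-0.86 ± 0.19, adjusted p = 0.00707).

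**Figure D3:**
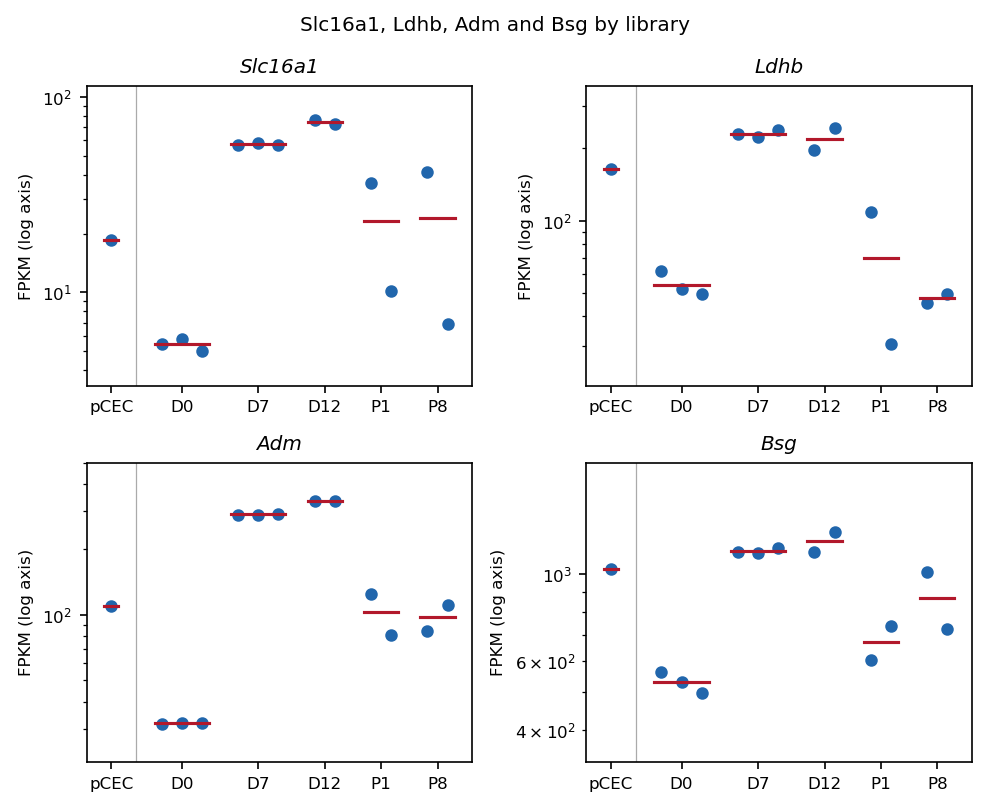
Level of Slc16a1, Ldhb, Adm and Bsg in FPKM (log axis) in each library, with points for libraries and red lines for group means. The D7 and D12 points lie above all D0, P1 and P8 points in each panel, and Slc16a1 splits within P1 and within P8.

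**Figure D4:**
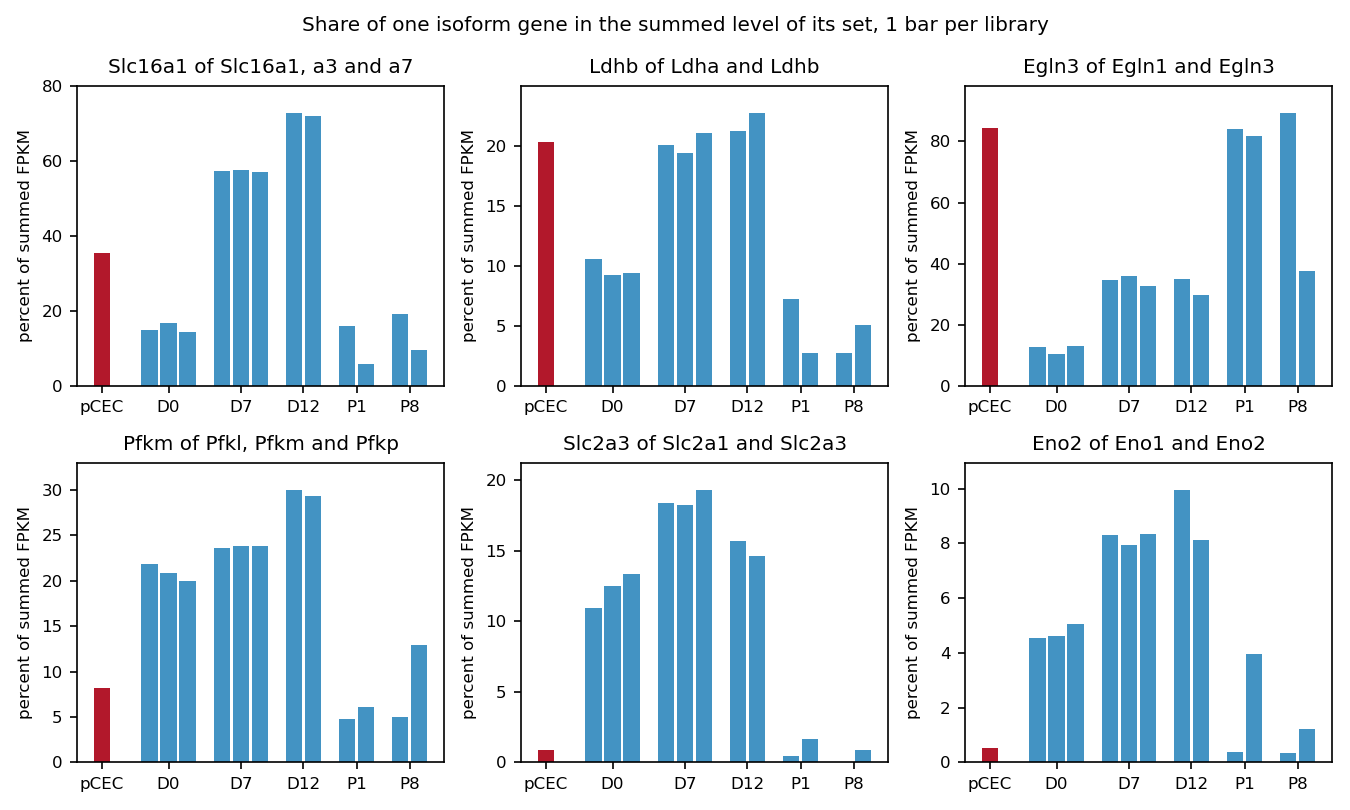
Share of 1 gene in the summed FPKM of its set, in percent, with 1 bar per library and pCEC in red. Slc16a1 holds over 57% of its set in D7 and D12, Egln3 over 80% in pCEC, P1 and P8 library 1, and Slc2a3 under 2% in pCEC, P1 and P8.

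Of the oxygen-sensing hydroxylase genes, Egln3 had the largest log2 fold change of any member in P1 against D0 and Egln1 a smaller one. Egln1 encodes PHD2, the main hydroxylase of HIF. It was at 19.4 FPKM in pCEC and, along the conversion, 14.9, 15.4 and 13.7 in D0, 20.6, 22.5 and 21.3 in D7, 20.3 and 21.4 in D12, 54.2 and 41.3 in P1 and 59.2 and 19.8 in P8. Egln3 (ENSMUSG00000035105, chr12:54178981-54203860 on the minus strand) encodes PHD3, itself a HIF target. It was at 105 FPKM in pCEC and, along the conversion, 2.17, 1.80 and 2.05 in D0, 10.9, 12.6 and 10.4 in D7, 10.9 and 9.14 in D12, 287 and 186 in P1 and 490.1 and 11.9 in P8. The pCEC library, both P1 libraries and P8 library 1 were at 105 FPKM or more, and all other libraries, P8 library 2 among them, were at 12.6 FPKM or less. Egln3 rose in P1 against D0 (6.27 ± 1.16, adjusted p = 0.00518) and in P1 against D12 (4.40 ± 1.27, adjusted p = 0.0226), but the call against D12 ended when any of its 4 libraries was left out, with adjusted p between 0.0552 and 0.103. Without P8 library 2, whose distance from P8 library 1 enters the spread shared by all groups, the same difference was 4.40 ± 0.20 with an adjusted p of 9.31e-07. It rose in pCEC against D0 (5.14 ± 1.46, adjusted p = 0.029), with adjusted p up to 0.0656 when a D0 library was left out. Egln1 rose in P1 against D0 (1.63 ± 0.36, adjusted p = 0.0111; 0.0526 without P1 library 1) and in P1 against D12 (1.15 ± 0.39, adjusted p = 0.0437; 0.064 to 0.178 when a compared library was left out).

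Further hypoxia targets fell into sets. Car9, a carbonic anhydrase of the cell surface that buffers acid, was at 12.8 FPKM in pCEC and, along the conversion, 3.23, 3.60 and 4.15 in D0, 1.18, 2.42 and 2.06 in D7, 1.39 and 1.27 in D12, 38.4 and 20.5 in P1 and 31.2 and 4.23 in P8. Ndrg1, a stress-responsive differentiation gene, was at 99.2 FPKM in pCEC and, along the conversion, 13.3, 12.7 and 14.4 in D0, 38.0, 37.3 and 32.5 in D7, 33.0 and 28.2 in D12, 262 and 215 in P1 and 382 and 17.4 in P8. Ankrd37, a small ankyrin-repeat protein and HIF target, was at 2.20 FPKM in pCEC and, along the conversion, 0.222, 0.533 and 0.466 in D0, 1.21, 0.589 and 0.548 in D7, 0.339 and 0.364 in D12, 13.6 and 11.8 in P1 and 8.43 and 1.74 in P8. In all 3 genes both P1 libraries and P8 library 1 were the highest, and P8 library 2 lay close to the D0, D7 or D12 levels. Ankrd37 rose in P1 against D12 (3.34 ± 0.48, adjusted p = 0.000855) and against D0 (3.29 ± 0.43, adjusted p = 0.0011). Car9 rose in P1 against D12 (3.64 ± 0.69, adjusted p = 0.00377) and against D0 (2.65 ± 0.63, adjusted p = 0.0154; 0.0775 without P1 library 1). Ndrg1 rose in P1 against D0 (4.04 ± 0.96, adjusted p = 0.0149; 0.0577 and 0.059 without either P1 library) and was not called against D12 (2.92 ± 1.05, adjusted p = 0.0526).

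Bnip3 and Bnip3l encode receptors for mitophagy. Bnip3 was at 67.0 FPKM in pCEC and, along the conversion, 12.2, 16.1 and 14.9 in D0, 16.9, 15.3 and 16.3 in D7, 15.8 and 11.7 in D12, 145 and 94.0 in P1 and 132 and 42.1 in P8. It rose in P1 against D12 (3.01 ± 0.45, adjusted p = 0.00103), in P1 against D0 (2.94 ± 0.41, adjusted p = 0.00137) and in pCEC against D0 (2.15 ± 0.51, adjusted p = 0.0151). Bnip3l lay between 76.4 and 193 FPKM and was not called. Windows shared with other genes make up 16.5% of Bnip3 and 20.8% of Bnip3l. Ddit4, which restrains mTORC1 under stress, was at 66.4 FPKM in pCEC and, along the conversion, 57.6, 52.2 and 54.1 in D0, 69.7, 66.9 and 69.6 in D7, 95.2 and 83.3 in D12, 125 and 194 in P1 and 93.3 and 34.7 in P8. It rose in P1 against D0 (1.49 ± 0.35, adjusted p = 0.0137; 0.0899 without P1 library 2).

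The secreted factors followed another course. Vegfa, the vascular growth factor, was at 473 FPKM in pCEC and, along the conversion, 112, 113 and 118 in D0, 198, 205 and 195 in D7, 281 and 217 in D12, 412 and 350.2 in P1 and 396 and 414 in P8. P8 library 2 was as high as P8 library 1 on Vegfa, and all P1, P8 and pCEC values exceeded every D0, D7 and D12 value. Vegfa rose in P1 against D0 (1.73 ± 0.13, adjusted p = 5.9e-05) and in pCEC against D0 (2.04 ± 0.16, adjusted p = 6.12e-05). Adm, the vasodilator adrenomedullin, was at 109 FPKM in pCEC and, along the conversion, 31.5, 32.0 and 32.0 in D0, 288, 288 and 292 in D7, 334 and 333 in D12, 125 and 80.5 in P1 and 84.7 and 111 in P8. Its highest values were those of D7 and D12. Adm rose in D7 against D0 (3.15 ± 0.16, adjusted p = 1.94e-06) and in P1 against D0 (1.62 ± 0.18, adjusted p = 0.000398), fell in P1 against D12 (-1.72 ± 0.19, adjusted p = 0.00025) and rose in pCEC against D0 (1.75 ± 0.22, adjusted p = 0.000842).

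P4ha1 and P4ha2 encode collagen prolyl hydroxylase subunits. P4ha1 was at 36.6 FPKM in pCEC and, along the conversion, 80.8, 84.0 and 81.8 in D0, 40.7, 41.0 and 37.6 in D7, 35.2 and 31.5 in D12, 48.0 and 63.2 in P1 and 35.8 and 79.1 in P8. P4ha2 was at 82.7 FPKM in pCEC and, along the conversion, 83.1, 81.0 and 73.3 in D0, 42.7, 42.7 and 43.9 in D7, 37.7 and 37.4 in D12, 159 and 178 in P1 and 177 and 67.0 in P8. P4ha1 was highest in D0 and P8 library 2, and P4ha2 in P1 and P8 library 1. P4ha1 fell in D7 against D0 (-1.03 ± 0.24, adjusted p = 0.00942; log2 fold change -0.99 without D7 library 3) and in pCEC against D0 (-1.14 ± 0.35, adjusted p = 0.0361), where the adjusted p was 0.0732 to 0.0786 when a D0 library was left out. P4ha2 rose in P1 against D12 (2.14 ± 0.35, adjusted p = 0.00165) and in P1 against D0 (1.08 ± 0.32, adjusted p = 0.0323), the second with adjusted p between 0.0721 and 0.129 when any compared library was left out.

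**Figure D5:**
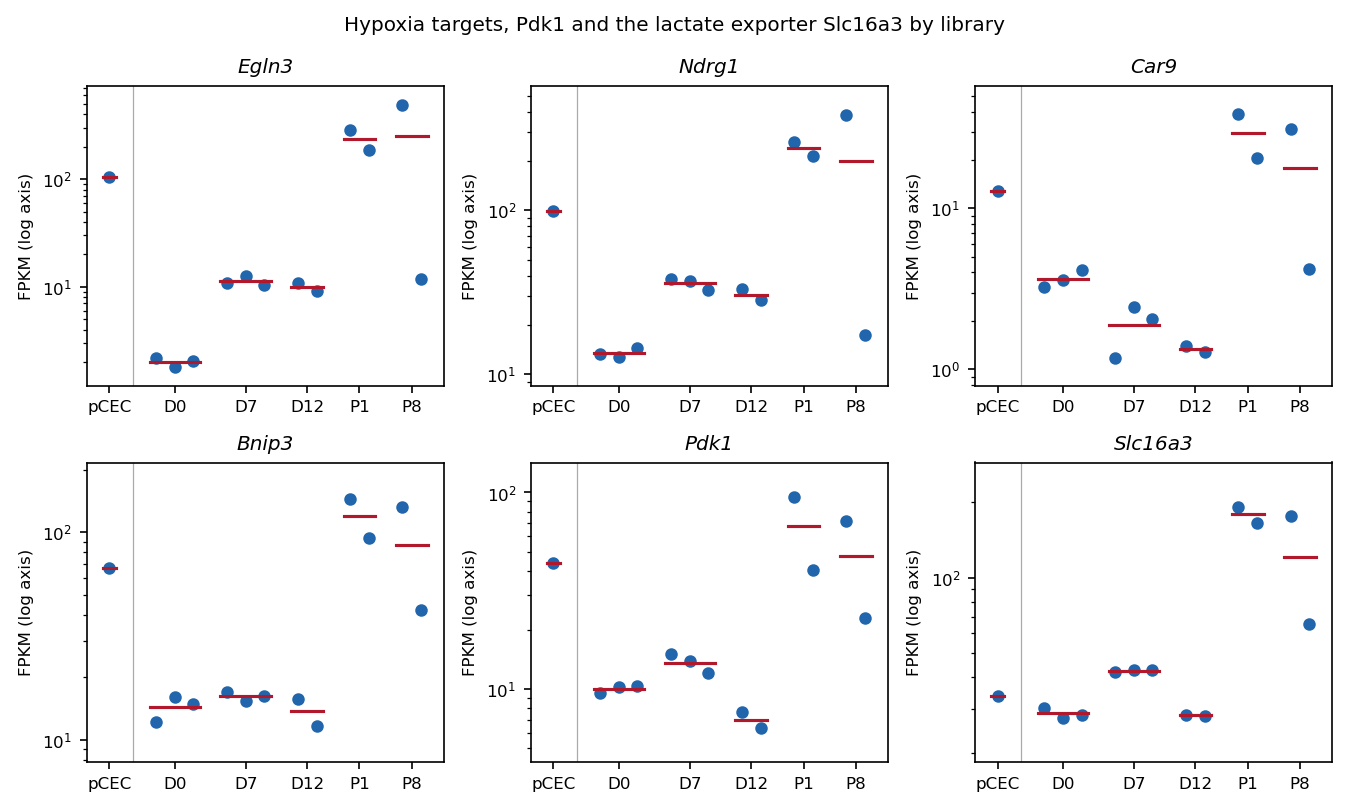
Level of Egln3, Ndrg1, Car9, Bnip3, Pdk1 and Slc16a3 in FPKM (log axis) in each library, with points for libraries and red lines for group means. In each panel the 2 P1 points and the upper P8 point, which is P8 library 1, stand above D0, D7 and D12, and the lower P8 point is P8 library 2.

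The 2 P8 libraries differed more than 4-fold on 8 of the 35 members with at least 1 FPKM in either. Aldoc, Slc16a1, Egln3, Ankrd37, Ndrg1 and Car9 were higher in P8 library 1, and Slc2a3 and Eno2 were higher in P8 library 2. The P1 libraries differed by that much on 1 member, Eno2. On the log2(FPKM + 1) scale, 35 of 36 members in P8 library 1 and 16 of 36 in P8 library 2 lay nearer to the P1 mean than to the D0 mean, where 65.7% and 36% of all genes did so in these libraries. In P8 against P1, 0 members rose and 1 fell (Slc2a1), where 0.406% of all genes rose and 1.02% fell. Without P8 library 2, 4 were called, with Aldoc and Egln3 higher and Slc2a1 and Slc2a3 lower, where 7.69% of all genes were called. Without P8 library 1, 14 were called, all lower, where 10.4% of all genes rose and 11.8% fell. In P8 against P1, leaving out P1 library 1 gave 3 calls, where 7.85% of all genes were called, and leaving out P1 library 2 gave 2, where 3.81% were. Without P8 library 2 the other counts were 11 in D7 against D0, 20 in P1 against D12 and 26 in P1 against D0, and every call made with that library was kept. In those fits 25.1, 32.6 and 24.7% of all genes were called, so the count in D7 against D0 was near the share of all genes. The 6 epithelial markers summed to 7358 FPKM in P8 library 1 and 1.28 FPKM in P8 library 2, against 6640.1 and 7984 FPKM in P1. The 6 macrophage markers summed to 57.6 FPKM in P8 library 1 and 838 FPKM in P8 library 2, against 20.4 and 17.9 FPKM in P1. The 5 proliferation markers summed to 169 and 54.2 FPKM in P8, against 120.2 and 9.52 FPKM in P1. The part of these markers in the members' differences was not tested.

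Between P1 and D12, the epithelial markers summed to 6640.1 and 7984 FPKM in P1 against 2.89 and 0.919 FPKM in D12, the 5 fibroblast markers to 333 and 742 FPKM against 1746 and 1621 FPKM, and the proliferation markers to 120.2 and 9.52 FPKM against 10.9 and 12.5 FPKM. In D0 the 6 macrophage markers summed to 1069, 1099.9 and 1038 FPKM. Their part in the members' differences was not tested.

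In pCEC against P1, 0 members rose and 2 fell (Slc2a1 and Slc16a3), where 1.93% of all genes rose and 0.893% fell, and the members' median was -0.68 against 0.00 over all genes. Without P8 library 2, 10 were called, all lower, among them Egln3, Ndrg1, Ankrd37 and Ddit4, where 8.32% of all genes were called. Without P1 library 1, 5 were called, where 10.4% of all genes were, and without P1 library 2, 4, where 4.86% were. In pCEC against D0, 11 members rose and 4 fell, where 13.2% of all genes rose and 9.63% fell. As pCEC is 1 library, its spread was taken from the other groups, and the 6 epithelial markers summed to 2167 FPKM in pCEC, against 6640.1 and 7984 FPKM in P1 and 2.61, 2.53 and 1.72 FPKM in D0. Their part in the result was not tested.

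The promoters of the members were read because many HIF targets share a short core, ACGTG or GCGTG on either strand, to which the HIF dimer binds. Promoter sequences from RefSeq (GRCm38.p6, the 250 bases before 1 RefSeq start per member) matched 31 of the 36 members by symbol, and Slc2a3, Slc16a7, Bsg, Ndrg1 and Bnip3l had no entry. For Slc16a3, Ankrd37, Aldoa, Gapdh, Ldha, P4ha2 and Pfkl the stretch lies wholly inside the GENCODE span of the gene. For Car9, Bnip3, Aldoc, Ddit4, Egln1, Pfkp, Pkm, Slc2a1 and Tpi1 it lies partly inside. A core was present in 24 of these 31 (77.4%), against 38.6% of all 32851 promoters in the table, and ACGTG in 16 (51.6%), against 16.6%. The comparison is not matched for base composition. Each member counts by 1 start, while the 32851 promoters include every start listed for a gene. Many members were listed as known hypoxia targets, so the choice itself favours promoters with a core. Of the 13 members that rose in P1 against D12, 12 held a core and Tpi1 held none, against 12 of the other 18 members with an entry. Below are 6 of those 13, given 5′ to 3′ on the gene's strand, with every core of either strand in capitals (CACGT and CACGC are the cores read on the other strand, and neighbouring cores may overlap). They were picked among the 13 to show the hypoxia targets, Pdk1 and the lactate exporter.
Egln3, chr12:54203875-54204124 (- strand): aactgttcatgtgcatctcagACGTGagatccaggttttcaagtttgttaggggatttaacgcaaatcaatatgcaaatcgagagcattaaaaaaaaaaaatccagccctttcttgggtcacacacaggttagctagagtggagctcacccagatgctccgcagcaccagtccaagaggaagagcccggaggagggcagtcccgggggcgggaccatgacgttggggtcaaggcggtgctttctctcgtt
Ankrd37, chr8:45999851-46000100 (- strand): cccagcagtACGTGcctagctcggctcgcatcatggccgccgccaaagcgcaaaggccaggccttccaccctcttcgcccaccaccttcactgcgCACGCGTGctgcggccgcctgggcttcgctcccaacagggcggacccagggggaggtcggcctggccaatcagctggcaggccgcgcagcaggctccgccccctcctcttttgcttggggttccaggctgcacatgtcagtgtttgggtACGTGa
Car9, chr4:43506776-43507025 (+ strand): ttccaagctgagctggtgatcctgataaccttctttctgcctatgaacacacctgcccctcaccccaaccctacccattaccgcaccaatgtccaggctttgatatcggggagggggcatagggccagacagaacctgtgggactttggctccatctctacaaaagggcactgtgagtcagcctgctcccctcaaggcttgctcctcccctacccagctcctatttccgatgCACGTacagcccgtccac
Bnip3, chr7:138909507-138909756 (- strand): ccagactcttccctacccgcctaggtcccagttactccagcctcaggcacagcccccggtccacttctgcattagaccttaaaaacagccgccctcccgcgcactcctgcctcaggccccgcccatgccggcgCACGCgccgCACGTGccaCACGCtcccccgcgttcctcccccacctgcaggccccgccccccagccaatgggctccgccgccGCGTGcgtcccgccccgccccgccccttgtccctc
Pdk1, chr2:71872974-71873223 (+ strand): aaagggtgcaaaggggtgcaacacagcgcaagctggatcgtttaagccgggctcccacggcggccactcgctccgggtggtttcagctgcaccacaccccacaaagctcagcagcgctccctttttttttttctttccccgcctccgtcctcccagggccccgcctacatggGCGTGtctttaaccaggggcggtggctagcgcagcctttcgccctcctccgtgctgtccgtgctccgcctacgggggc
Slc16a3, chr11:120948817-120949066 (+ strand): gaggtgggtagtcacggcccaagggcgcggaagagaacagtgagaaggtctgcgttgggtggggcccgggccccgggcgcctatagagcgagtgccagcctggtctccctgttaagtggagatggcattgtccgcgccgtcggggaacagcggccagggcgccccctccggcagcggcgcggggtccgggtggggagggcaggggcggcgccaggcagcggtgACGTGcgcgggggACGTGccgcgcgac

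Ankrd37 held 4 cores and Bnip3 held 5, Slc16a3 held 2 within 27 bases of its RefSeq start, and Car9 held 1, at 18 bases before its RefSeq start. Egln3 and Pdk1 held 1 each, at 229 and 78 bases before their RefSeq starts. The Slc16a3, Ankrd37 and Car9 cores lie inside the GENCODE span of their genes. Slc16a1 held 4 cores too, although it did not rise in P1 against D12. A match is a string of letters and not a shown binding site.

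The other genes of the HIF pathway were followed by counts. Of 9 HIF pathway regulators, Hif1a and Cited2 rose and Arnt2 fell in P1 against D12, Cited2 rose in P1 against D0, and these were the only calls of limma among the 9 genes over the 7 comparisons. Hif1a, the oxygen-regulated HIF subunit, was at 73.1 FPKM in pCEC and, along the conversion, 104, 105 and 110.2 in D0, 50.2, 53.8 and 51.9 in D7, 64.7 and 51.7 in D12, 409 and 96.2 in P1 and 199.9 and 179.5 in P8, with P1 library 1 the highest of all 13 libraries. Its log2 fold change in P1 against D12 was 1.76 ± 0.51, adjusted p = 0.023, but 0.72 without P1 library 1, under the fold limit, and the adjusted p was 0.0637 and 0.12 without either D12 library. Cited2, which limits HIF activity, was at 65.4 FPKM in pCEC and, along the conversion, 31.8, 27.5 and 26.2 in D0, 38.9, 39.2 and 34.4 in D7, 32.5 and 34.1 in D12, 51.7 and 151 in P1 and 109 and 125 in P8. Without P1 library 2 its log2 fold changes were 0.62 against D12 and 0.84 against D0, under the fold limit, and without either D12 library its adjusted p against D12 was 0.0813 and 0.0818. The Arnt2 call ended when any of the 4 compared libraries was left out, with adjusted p between 0.0662 and 0.113. Of 22 further hypoxia targets tested, 11 rose and 0 fell in P1 against D12, with a median log2 fold change of 1.77 against 0.11 over all genes. In P1 against D0, 11 rose and 3 fell, with a median of 1.25 against 0.04, and in D7 against D0, 3 rose and 4 fell, with a median of -0.40 against 0.00. In pCEC against D0, 7 rose and 4 fell. Of all genes, 14.7, 10.9, 11.3 and 13.2% rose in these comparisons, in the order given, and 12.6, 8.36, 10.9 and 9.63% fell. Nos2, inducible nitric oxide synthase, had the highest fold change of these lists in P1 against D12 (5.71 ± 0.52, adjusted p = 7.94e-05), at 39.9 and 92.1 FPKM in P1 against 0.281 and 0.0930 FPKM in D12. It fell in P8 against P1 (-2.62 ± 0.52, adjusted p = 0.0421) and in pCEC against P1 (-3.53 ± 0.64, adjusted p = 0.0182). The P8 call ended without P1 library 2 (adjusted p = 0.0903) and under both other scalings (0.0525 and 0.0677), and both calls ended with a pseudocount of 0.1 (0.108 and 0.0684). Bhlhe40, a transcriptional repressor, was at 146 FPKM in pCEC and, along the conversion, 26.9, 29.2 and 29.0 in D0, 17.2, 17.8 and 17.6 in D7, 18.9 and 17.5 in D12, 220.0 and 293 in P1 and 351 and 37.7 in P8, and rose in P1 against D12 (3.73 ± 0.77, adjusted p = 0.00546). Lox and Loxl2 encode collagen cross-linking oxidases. Lox was at 6.78 FPKM in pCEC and, along the conversion, 487, 534 and 572 in D0, 31.5, 33.5 and 32.6 in D7, 25.6 and 21.9 in D12, 69.5 and 101 in P1 and 1.80 and 259.7 in P8, and fell in D7 against D0 (-3.98 ± 1.28, adjusted p = 0.0341) and in pCEC against D0 (-6.09 ± 1.81, adjusted p = 0.034). Leaving out any compared library with a replicate ended both calls, with adjusted p between 0.078 and 0.09 in D7 against D0 and between 0.0695 and 0.073 in pCEC against D0. Loxl2 fell in pCEC against D0 (-6.99 ± 1.20, adjusted p = 0.00361; 0.064 by voom on recovered reads).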

How the data were processed

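Per the labels' protocols, RNA was taken with Trizol and 13 TruSeq libraries were made, each from 1 ug. The deposited table holds FPKM values made by the authors for 54603 lines, and no deposited value was changed. The submitters' processing notes list Bowtie 0.12.2 and, as builds, mm10 and mm8, with no role. The counting tool is not given in the sources used here. All 13 columns were used and 0 were not. Identifiers follow the D0 columns only, and other groups' lines follow hash-table orders (131072 slots) of their own. Genes were placed on those lines by slot order, within 12 probe positions, and by requiring whole reads in every library of a group at the 10 printed digits, with gene length as the rounded mean transcript length of GENCODE M21 (GRCm38). The placement rule was refined after an implausible value of a member (Pgk1 in D12) had been seen. It placed 98.24 to 98.71% of the lines with reads outside D0. With D0 identifiers hidden but lengths set from D0 kept, 99.65 to 99.85% of placed genes were right. With the lengths of 1 in 5 genes from GENCODE M21 only, 94.3% of these genes at 1 FPKM or more were right. Of them, 138 were wrongly taken as 0. Left out were 125 genes whose 0 in a whole group was doubtful and 192 that stayed unresolved. Of the 180 member placements outside D0, 141 lay on the home slot. A median of 30 genes matched a member's values by whole reads alone, so the slot order decided among them.

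Tests used limma 3.58.1 in R 4.3.3 on log2(FPKM + 1), with 1 mean per group over all 13 libraries, a trended prior, 7 residual degrees of freedom and 17472 genes at 1 FPKM or more in at least 1 library. Adjusted p-values are Benjamini-Hochberg over all genes and 7 comparisons were made. Fold changes are given as log2 ± SE. Tested on simulated data of D7 against D0 with 17472 genes, the fit recovered 80% of changes of log2 2 and 91% of log2 3. Depth was recovered from the values. P-values measure the spread between libraries, which may be technical. The members and lists were chosen with earlier results of these data known. Values of all libraries are given for members called in at least 1 comparison, for the most abundant member of a role and for members over 4-fold apart within P1 or P8, other members by range, and of other pathway genes the 3 largest called changes per comparison. Other pathway genes named beside small counts were chosen after their values were seen. Alternatives changed the pseudocount, filter, scaling, fold limit, test, block and libraries. A 50-base window counted as shared when another gene's transcripts hold it.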

Additional observations from a re-analysis of the deposited data

How the results depend on the processing

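Of the 67 calls of single members, 42 kept direction and call under every alternative run, and none changed direction. The counts of members called moved by more than 1.5 times as follows. Without a fold limit, D7 against D0 gave 15, where 40.9% of all genes were called, so this count was near the share of all genes. Without that limit P8 against P1 gave 2, where 2.01% of all genes were called. With only the 2 groups compared in the fit, P8 against P1 gave 0 and pCEC against P1 gave 0, in fits of 4 and 3 libraries. In both fits 0% of all genes were called, so these counts say nothing particular about the members. Without P8 replicate 2, P8 against P1 gave 4 and pCEC against P1 gave 10, and without both P8 libraries pCEC against P1 gave 10. Leaving out 1 library at a time gave 7 to 11 calls in D7 against D0, 0 to 0 in D12 against D7, 13 to 20 in P1 against D12, 18 to 26 in P1 against D0, 2 to 14 in P8 against P1, 4 to 10 in pCEC against P1 and 10 to 20 in pCEC against D0. The cause of these moves was not tested. In D7 against D0, 18.5 to 25.1% of all genes were called when 1 library was left out, near the share of members. With the replicate number as a block, members called were 8 in D7 against D0, 0 in D12 against D7, 16 in P1 against D12, 22 in P1 against D0 and 1 in P8 against P1. In the same order, 21.1, 0.183, 25, 14.6 and 0.698% of all genes were called, so the D7 count was near the share of all genes. Correlations of the deviations of same-numbered libraries from their group means lay between -0.116 and 0.178. They cannot show whether the numbers pair samples, since in a group of 2 libraries the deviations mirror each other. The labels do not say whether the numbers pair samples. No paired analysis was possible for pCEC because its library carries no number. Depth was 9997865 reads in P1 library 2, the lowest, and limits genes near 1 FPKM such as Slc16a7 and Ankrd37.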

Other observations

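Neighbouring pathways that the members do not cover were counted too. Of 7 pentose phosphate genes, which make NADPH and ribose, 5 rose and 0 fell in pCEC against D0, 2 rose in P1 against D12 (Rpia and Tkt, the Rpia call ending when any of the 4 compared libraries was left out, with adjusted p between 0.0848 and 0.116), 2 rose in D7 against D0 and 2 in P1 against D0 (G6pdx and Taldo1 in each, with an adjusted p of 0.0596 for Taldo1 in P1 against D0 without P1 library 2). Of all genes, 13.2% rose and 9.63% fell in pCEC against D0. In P1 against D12, D7 against D0 and P1 against D0, 14.7, 11.3 and 10.9% of all genes rose. The list's median log2 fold change in pCEC against D0 was 2.28, against 0.05 over all genes. G6pdx, the first enzyme of the pathway, was at 240.2 FPKM in pCEC and, along the conversion, 41.1, 39.0 and 38.6 in D0, 109, 110.1 and 105 in D7, 105 and 109.7 in D12, 132 and 157 in P1 and 97.5 and 91.1 in P8. Tkt, transketolase, was at 495 FPKM in pCEC and, along the conversion, 105, 103 and 96.1 in D0, 72.0, 73.4 and 73.3 in D7, 81.5 and 80.9 in D12, 239 and 165 in P1 and 205 and 186 in P8, and rose in pCEC against P1 (1.32 ± 0.20, adjusted p = 0.00661). Taldo1, transaldolase, was at 936 FPKM in pCEC and, along the conversion, 116, 101 and 89.8 in D0, 406, 392 and 421 in D7, 439 and 577 in D12, 318 and 473 in P1 and 616 and 200.003 in P8. Genes of this list were chosen after their values were seen.

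Of 15 further glucose and monocarboxylate transporters tested, 6 rose and 1 fell in P1 against D12, where 14.7% of all genes rose and 12.6% fell. In P1 against D0, 6 rose and 3 fell, where 10.9% of all genes rose and 8.36% fell. Of these calls against D0, those of Slc5a1, Slc5a8, Slc2a10 and Slc2a6 ended when any D0 library was left out, with adjusted p between 0.0562 and 0.11. In P1 against D12 the Slc5a1 and Slc5a8 calls ended by voom on recovered reads (adjusted p = 0.0518 and 0.148). Slc16a11, a relative of the lactate transporters, was at 287 FPKM in pCEC and, along the conversion, 0.876, 0.921 and 2.03 in D0, 5.75, 5.96 and 5.51 in D7, 5.21 and 5.67 in D12, 57.2 and 80.5 in P1 and 60.0 and 17.4 in P8, and rose in P1 against D0 (4.96 ± 0.44, adjusted p = 0.00013) and in pCEC against D0 (7.02 ± 0.56, adjusted p = 5.95e-05). Slc5a1, the sodium-coupled glucose transporter of epithelia, was at 27.1 FPKM in pCEC, 29.0 and 30.1 FPKM in P1 and 66.0 and 0 FPKM in P8, and was listed at 0 in all 3 D0 libraries. Slc2a5, a fructose transporter, was at 0.139 and 0.381 FPKM in P8 against 6.10 and 3.22 FPKM in P1 and fell there (-2.13 ± 0.26, adjusted p = 0.00449).

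Of 16 other glycolysis and gluconeogenesis genes tested, 1 rose and 3 fell in D7 against D0, where 11.3% of all genes rose and 10.9% fell, and the list's median was -0.07 against 0.00 over all genes. Eno3, the muscle enolase, was at 11.2 FPKM in pCEC and, along the conversion, 54.5, 54.3 and 48.5 in D0, 5.29, 5.79 and 4.71 in D7, 7.27 and 6.36 in D12, 3.59 and 4.22 in P1 and 6.90 and 10.1 in P8, and fell in D7 against D0 (-3.09 ± 0.16, adjusted p = 1.93e-06). Pck2, the mitochondrial enzyme that makes phosphoenolpyruvate, was at 55.3 FPKM in pCEC and, along the conversion, 128, 119.5 and 116 in D0, 11.6, 12.2 and 12.1 in D7, 12.3 and 14.6 in D12, 29.3 and 32.1 in P1 and 40.9 and 21.2 in P8, and fell in D7 against D0 (-3.23 ± 0.20, adjusted p = 6.45e-06). Of 13 genes of pyruvate entry into mitochondria, 4 rose and 1 fell in D7 against D0, and 1 rose and 2 fell in P1 against D12, where 14.7% of all genes rose and 12.6% fell, with list medians of -0.01 against 0.00 and 0.11 against 0.11 over all genes. Pcx, pyruvate carboxylase, was at 13.45 FPKM in pCEC and, along the conversion, 20.2, 19.96 and 20.3 in D0, 101, 98.2 and 96.5 in D7, 152 and 131 in D12, 15.9 and 19.9 in P1 and 19.8 and 7.24 in P8. Pdk4, a second kinase of pyruvate dehydrogenase, was at 244 FPKM in pCEC and, along the conversion, 2.80, 3.63 and 2.93 in D0, 14.1, 15.4 and 14.7 in D7, 11.5 and 7.61 in D12, 128 and 42.3 in P1 and 7.55 and 29.1 in P8.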
